A study of Equus caballus with 25 samples.

Results

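Transcripts of 3 immune genes, CD1E, CD1C and SLAMF9, were followed through bronchoalveolar lavage (BAL) cells of healthy and asthmatic horses. The array carried 7238 equine Ensembl transcripts, and 4 of them were taken here by their identifiers: ENSECAT00000024166 (CD1E), ENSECAT00000012056 and ENSECAT00000012105 (both CD1C) and ENSECAT00000023712 (SLAMF9). They were chosen by the results of the same horses. All of them are among the transcripts that the study selected as differing between severe asthma and controls, and all but ENSECAT00000012056 also between severe and mild asthma. For these 4 transcripts, differences that involve the severe group are therefore given as a description, without a test. The symbols are those of the study's gene lists.

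The groups were 7 clinically healthy controls (CTRL, labelled Control), 10 horses with mild equine asthma (MEA, labelled IAD) and 8 horses with severe equine asthma (SEA, labelled RAO), with 1 array for each horse. No horse received an experimental treatment, and the groups rest on the clinical examination, endoscopy and BAL cytology. Only MEA horses with a neutrophilic infiltrate were taken into the study. By the study's cytology, macrophages prevailed in CTRL and MEA and neutrophils in SEA, so that the mix of cells and the group cannot be told apart for SEA. The SEA horses were older than the others, and the controls were all Standardbreds whereas most affected horses were saddle horses, so that age, breed and group cannot be told apart for SEA, nor breed and group for MEA.

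CD1 molecules are relatives of the class I histocompatibility molecules that hold lipids and glycolipids in a hydrophobic groove and show them to T cells. CD1C is a surface molecule of a subset of dendritic cells and of some B cells, and it samples lipids from endosomes. CD1E does not reach the cell surface. It stays inside dendritic cells, and in late endosomes and lysosomes a soluble form helps to load lipids onto other CD1 molecules. SLAMF9 belongs to the SLAM family of immune cell receptors, it is expressed in antigen-presenting cells, and it lacks the tyrosine-based signaling motifs that most of its relatives carry in their tails.

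Each transcript was read by a probe of 60 bases. The probes are shown because 2 transcripts carry the same symbol and the CD1 genes resemble each other, so that the letters decide what each value can stand for. They are given from left to right as in the scanner files, in lower case throughout.
CD1E ENSECAT00000024166: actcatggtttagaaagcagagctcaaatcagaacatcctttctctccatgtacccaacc
CD1C ENSECAT00000012056: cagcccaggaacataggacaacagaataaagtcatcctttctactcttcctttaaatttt
CD1C ENSECAT00000012105: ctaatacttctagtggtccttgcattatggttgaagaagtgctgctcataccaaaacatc
SLAMF9 ENSECAT00000023712: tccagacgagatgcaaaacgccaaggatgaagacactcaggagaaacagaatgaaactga

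The CD1C probes have no more than 5 bases in a row in common, so they read different sequence although they bear the same symbol. The CD1E probe and the probe of CD1C ENSECAT00000012056 share a run of 10 bases. Compared with the 7237 other probes of the array, the longest run shared by any of the CD1E and CD1C probes was 12 bases, and by the SLAMF9 probe 13 bases. These runs compare probes with probes only. Whether a probe also binds RNA of another CD1 gene was not tested. The GC content was 43.3% for CD1E, 36.7% and 40% for the CD1C probes and 45% for SLAMF9. A gene table of the horse (RefSeq, assembly TB-T2T) lists 13 CD1 genes, all on chromosome 5, with 2 CD1E genes and 1 CD1C gene among them. Chromosome 5 also holds SLAMF9 and the other 8 SLAM family genes of that table. The table carries no equine Ensembl transcript identifiers, so the transcripts could not be assigned to those genes and no positions are given.

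On a horse's array every probe was spotted 2 times, and the scanner software marked each spot as well above background or not. The fraction of an array's spots so marked ranged from 63.5% to 90.4% in CTRL, from 58.2% to 84.1% in MEA and from 66.6% to 90.8% in SEA. Arrays lay on 4 slides, and each slide held all groups, but slide 4 held 5 MEA horses with a single CTRL horse (replicate 7) and a single SEA horse (replicate 8). Values are log2 intensities after cyclic loess normalization of all 25 arrays, as the mean of both spots.

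The transcripts differed in how often they could be read. SLAMF9 had both spots well above background on 23 of 25 arrays and CD1E on 22. CD1C ENSECAT00000012056 reached this on 15 arrays. CD1C ENSECAT00000012105 did so on 6 arrays, and at least 1 of its spots did so on 13.

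The study left out transcripts with an intensity below 4.5 in at least 19 of 25 arrays. Its methods give no scale for this limit, and on the log2 scale used here 4930 of 7238 transcripts passed. CD1E (below 4.5 on 8 arrays) and SLAMF9 (on 1 array) passed. CD1C ENSECAT00000012056 passed narrowly, since it was below the limit on 18 arrays. CD1C ENSECAT00000012105 was below the limit on 20 arrays and did not pass, and its fits below come from all 7238 transcripts without the filter. Since the study lists it as differing, it had passed there. The study also kept more transcripts in all, so the filter as applied here is stricter than the study's own step, and the tested sets differ. Of the arrays on which these CD1C transcripts reached 4.5, SEA horses made up 6 of 7 for ENSECAT00000012056 and 4 of 5 for ENSECAT00000012105, so that they passed or nearly passed through the group in which they were high.

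CD1E, the intracellular member of the family, had log2 intensities of 3.24, 4.27, 4.31, 4.47, 4.54, 4.67 and 6.60 in CTRL horses. In MEA horses it lay between 2.82 and 5.56 with a median of 4.67. In SEA horses it lay between 5.07 and 7.10 with a median of 6.16. All SEA horses were above the CTRL mean, and 7 of 8 were above every MEA horse. CTRL replicate 7, at 6.60, stood apart from the other controls, and the SEA and CTRL ranges overlapped only through that horse. The SEA mean was 6.18 ± 0.71 (SD, n = 8), the MEA mean 4.51 ± 0.80 (SD, n = 10) and the CTRL mean 4.58 ± 1.01 (SD, n = 7).

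CD1C ENSECAT00000012056 had values of 2.37, 2.94, 3.65, 3.83, 3.95, 3.97 and 4.64 in CTRL horses. In MEA horses it lay between 3.40 and 4.25 with a median of 3.90, the narrowest spread of the transcript in any group. In SEA horses it lay between 3.71 and 5.97 with a median of 4.98. All SEA horses but replicate 1 were above every MEA horse, and 6 of 8 were above every CTRL horse. The SEA mean was 4.97 ± 0.71 (SD, n = 8), the MEA mean 3.87 ± 0.25 (SD, n = 10) and the CTRL mean 3.62 ± 0.75 (SD, n = 7). Both spots were well above background on 4 of 7 CTRL, 4 of 10 MEA and 7 of 8 SEA arrays.

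CD1C ENSECAT00000012105 had values of 1.68, 1.95, 2.01, 2.46, 2.505, 3.33 and 4.61 in CTRL horses, the highest again in CTRL replicate 7. In MEA horses it lay between 1.64 and 3.25 with a median of 2.84. In SEA horses it lay between 2.18 and 6.15 with a median of 4.78. All SEA horses but replicate 6 were above every MEA horse, and 4 of 8 were above every CTRL horse. The SEA mean was 4.54 ± 1.23 (SD, n = 8), the MEA mean 2.60 ± 0.61 (SD, n = 10) and the CTRL mean 2.65 ± 1.02 (SD, n = 7). Both spots were well above background in CTRL replicate 7, in MEA replicate 9 and in 4 of 8 SEA horses, so that most CTRL and MEA values of this transcript lie at the background of the arrays. The median gap between its 2 spots was 0.68 in CTRL and 1.01 in MEA, against 0.19 in SEA.

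SLAMF9, the receptor of antigen-presenting cells, had values of 4.30, 4.93, 5.08, 5.63, 5.92, 6.28 and 6.47 in CTRL horses. In MEA horses it lay between 4.68 and 7.32 with a median of 5.37. In SEA horses it lay between 5.96 and 8.21 with a median of 7.35. All SEA horses but replicate 1 were above every CTRL horse, while MEA replicates 5 (7.32) and 3 (6.52) reached into the SEA range. The SEA mean was 7.29 ± 0.78 (SD, n = 8), the MEA mean 5.49 ± 0.86 (SD, n = 10) and the CTRL mean 5.51 ± 0.78 (SD, n = 7). At least 1 spot was well above background on every array, and both were on all but CTRL replicates 1 and 2.

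**Figure D1:**
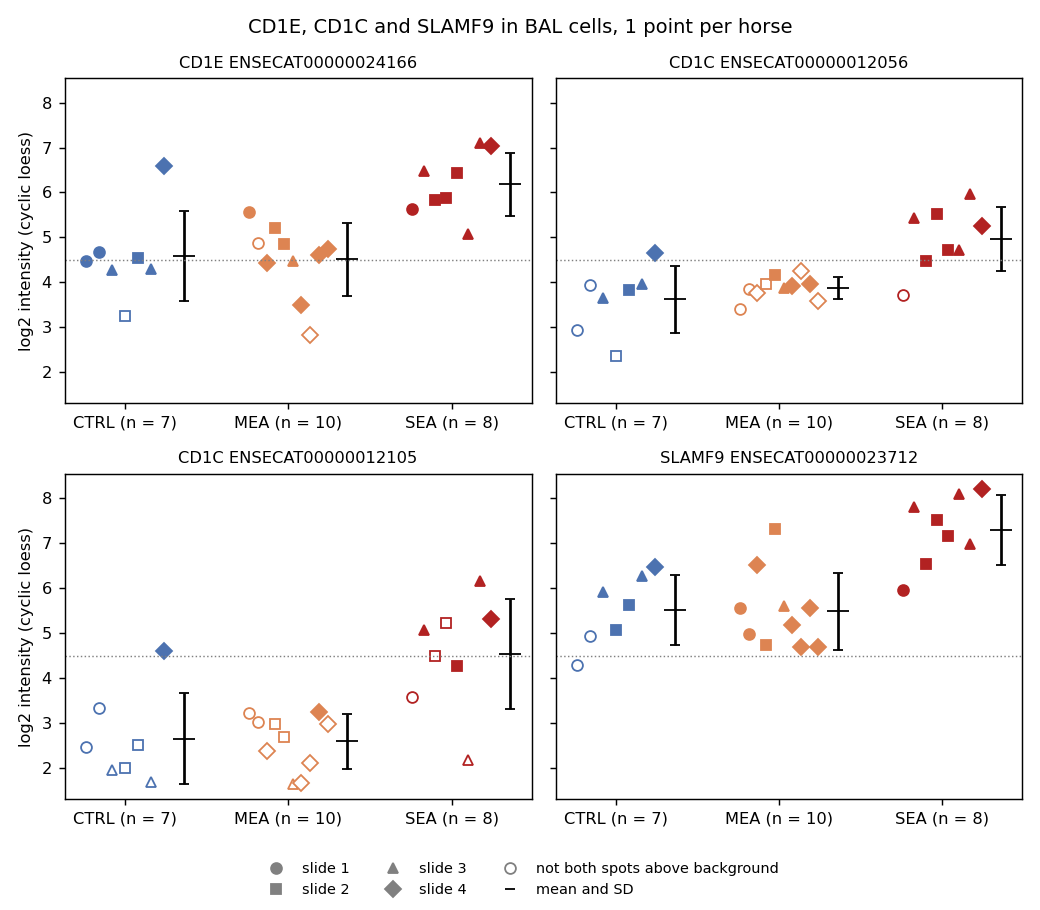
Log2 intensity of the CD1E, CD1C and SLAMF9 transcripts (y axis) in CTRL, MEA and SEA horses (x axis), 1 point for each horse, with the mean and SD beside each group. Marker shapes give the slide, open markers arrays on which not both spots were well above background, and the dotted line the limit of 4.5. SEA horses are the high group in every panel, MEA and CTRL overlap, and CTRL replicate 7 is the highest control in each.

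In all 4 transcripts the SEA mean was highest, and the CTRL and MEA ranges overlapped. Relative to CTRL, SEA was higher by 1.60 ± 0.41 (SE) for CD1E, which is 3.03-fold. The difference was 1.35 ± 0.36 (SE, 2.55-fold) for CD1C ENSECAT00000012056 and 1.89 ± 0.53 (SE, 3.70-fold) for CD1C ENSECAT00000012105, whose fold is uncertain because most CTRL values were at background. For SLAMF9 it was 1.77 ± 0.38 (SE, 3.42-fold). Normexp background correction, which compresses low intensities, lowered these differences to 0.51 for CD1E, 0.22 and 0.23 for the CD1C transcripts in the same order and 0.93 for SLAMF9. Scaling to the 75th percentile lowered that of CD1C ENSECAT00000012056 to 0.97 ± 0.53 (SE). In bulk BAL cells, more cells that express a gene and more RNA per cell cannot be told apart.

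Relative to MEA, SEA was higher by 1.67 ± 0.35 (SE, 3.19-fold) for CD1E and by 1.80 ± 0.37 (SE, 3.48-fold) for SLAMF9. The CD1C transcripts differed by 1.10 ± 0.24 (SE, 2.14-fold) for ENSECAT00000012056 and by 1.94 ± 0.41 (SE, 3.83-fold) for ENSECAT00000012105, whose fold is uncertain here too because both spots were well above background on 1 of 10 MEA arrays. This contrast had served to select CD1E, CD1C ENSECAT00000012105 and SLAMF9. Both contrasts share the SEA horses.

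Inside each slide, SEA was above CTRL and above MEA for all 4 transcripts, although by unequal amounts. SLAMF9 was the steadiest against CTRL, with differences of 1.35, 1.72, 1.53 and 1.74 on slides 1 to 4. CD1E differed by 1.06, 2.16, 1.93 and 0.44, the smallest value on slide 4 with its single control. Against MEA, CD1E differed by 0.41 on slide 1 and by 3.02 on slide 4, and SLAMF9 by 0.69 on slide 1 and by 2.88 on slide 4. On slide 1, which held a single SEA horse, CD1C ENSECAT00000012056 exceeded MEA by 0.09.

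The comparison of MEA with CTRL was not used to choose these transcripts, although both groups took part in the contrasts that were, and it asks whether mild disease lies with the controls or below them. No member was called, that is, none had a limma adjusted p below 0.1 with a fold of at least 1.5. The limma differences were -0.08 ± 0.41 (SE) for CD1E with an adjusted p of 0.928, 0.25 ± 0.25 (SE) for CD1C ENSECAT00000012056 with an adjusted p of 0.565, and -0.03 ± 0.38 (SE) for SLAMF9 with an adjusted p of 0.975. For CD1C ENSECAT00000012105 the fit without the filter gave -0.05 ± 0.37 (SE) with an adjusted p of 0.956. Of all tested transcripts 3.23% were called higher and 6.51% lower in MEA, and 5.08% in either direction without the filter.

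For CD1E and SLAMF9 no difference between MEA and CTRL was detected, within intervals that are wide. None was detected for CD1C ENSECAT00000012056, but it reached the limit of the filter on 1 of 7 CTRL and 0 of 10 MEA arrays. Both of its spots were well above background on 4 of 7 CTRL and 4 of 10 MEA arrays. With so many values near background, its test cannot show whether MEA lay with the controls. CD1C ENSECAT00000012105 lay at background on most arrays of both groups, so its values cannot show whether MEA was below CTRL. The 95% interval of MEA minus CTRL ran from -0.93 to 0.78 for CD1E, from -0.28 to 0.78 for CD1C ENSECAT00000012056, from -0.82 to 0.71 for CD1C ENSECAT00000012105 and from -0.83 to 0.77 for SLAMF9. With all 19448 ways to divide the 17 horses, an exact two-sided permutation test gave unadjusted p values of 0.867, 0.349, 0.902 and 0.947 in the same order. For CD1E, 6 of 10 MEA horses were above the CTRL mean, and for SLAMF9 5 of 10. For the CD1C transcripts it was 8 of 10 (ENSECAT00000012056) and 6 of 10 (ENSECAT00000012105).

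The CD1E value depended on slide 4. MEA was above CTRL by 0.65, 1.14 and 0.19 on slides 1, 2 and 3, and 2.58 below on slide 4, where CTRL replicate 7 was the only control. On slides 1 to 3 alone, an alternative chosen after the values were seen, MEA exceeded CTRL by 0.75 ± 0.28 (SE, limma adjusted p of 0.113). The 5 MEA horses of slide 4 had CD1E values of 2.82, 3.49, 4.43, 4.61 and 4.73, against 4.48 to 5.56 for the other 5. The other members moved in the same direction when slide 4 was left out, to 0.40 ± 0.31 for CD1C ENSECAT00000012056, 0.39 ± 0.35 for CD1C ENSECAT00000012105 and 0.29 ± 0.47 for SLAMF9, with limma adjusted p values of 0.428, 0.596 and 0.722. The part of the slide in these values was not tested.

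Detection was also compared between MEA and CTRL. Both spots of CD1E were well above background on 8 of 10 MEA and 6 of 7 CTRL arrays (two-sided Fisher's exact test, p = 1). For CD1C ENSECAT00000012056 it was 4 of 10 and 4 of 7 (Fisher's exact test, p = 0.637), and for CD1C ENSECAT00000012105 1 of 10 and 1 of 7 (Fisher's exact test, p = 1). SLAMF9 was so detected on 10 of 10 MEA and 5 of 7 CTRL arrays (Fisher's exact test, p = 0.154). None of the 4 passed a p of 0.05 without adjustment. With so few arrays, only a large shift in detection could have.

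**Figure D2:**
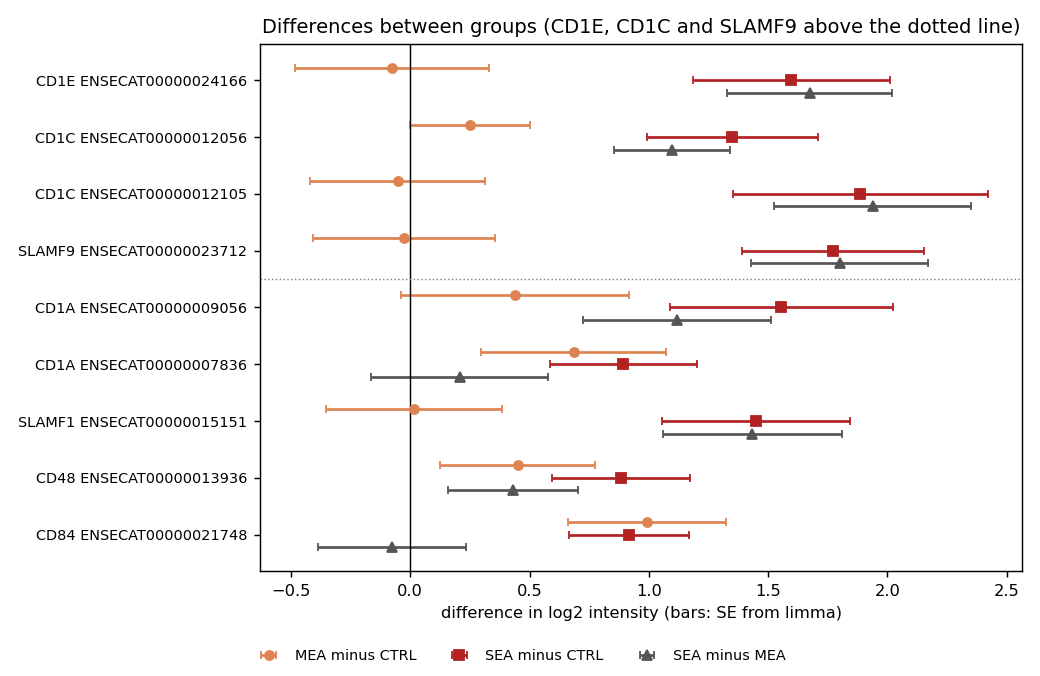
Differences in log2 intensity between groups (x axis) with their standard errors from limma for the CD1E, CD1C and SLAMF9 transcripts and for the CD1A and SLAM family transcripts with a symbol (y axis). MEA minus CTRL lies within 1 SE of 0 for the 4 members, while SEA lies between 1.10 and 1.94 above both other groups.

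Whether the transcripts went up and down together from horse to horse was tested inside each group, where the difference between groups has no part. The 6 pairs gave 18 correlations over the groups, each with a two-sided permutation test, exact for CTRL and SEA. CD1C ENSECAT00000012105 lay at background on most CTRL and MEA arrays, with both spots well above it on 1 of 7 and 1 of 10. CD1E and this CD1C transcript had the highest r in each group. In SEA it was 0.86 (n = 8, exact permutation p = 0.0045, adjusted p = 0.0817; Spearman's rho = 0.88, exact permutation p = 0.0072). In CTRL it was 0.88 (n = 7, exact permutation p = 0.0127, adjusted p = 0.114; rho = 0.86, p = 0.0238), and in MEA 0.70 (n = 10, permutation p = 0.0221, adjusted p = 0.133; rho = 0.67, p = 0.0398). None of the 18 passed an adjusted p of 0.05, and 2 pairs in CTRL, 1 in MEA and 2 in SEA had an unadjusted permutation p below 0.05.

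Single horses carried part of this relation. Without the 2 horses farthest from the CD1E median, r was 0.95 in CTRL, 0.60 in SEA and 0.59 in MEA. Without CTRL replicate 7 it was 0.52 in CTRL (exact permutation p = 0.256), so that the CTRL value moved with the horses left out. CTRL replicates 7 and 4 were the pair farthest from the median. When the percentage of detected spots of each array was regressed out inside each group, r was 0.96 (CTRL), 0.72 (MEA) and 0.89 (SEA).

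The other CD1 pairs had lower r. CD1E and CD1C ENSECAT00000012056 had an r of 0.83 in CTRL, 0.63 in SEA and -0.60 in MEA, the group in which that CD1C transcript hardly varied and was detected on 4 of 10 arrays. Without the 2 farthest horses these were 0.0765, 0.56 and -0.40. The CD1C transcripts had an r of 0.61 in CTRL, 0.71 in SEA and -0.38 in MEA, and the CTRL value was 0.23 without replicate 7 but 0.85 without the 2 farthest horses. The adjusted p values of these 6 correlations lay between 0.146 and 0.430, and the differences between groups were not tested.

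SLAMF9 had r of 0.48 in CTRL, 0.22 in MEA and 0.17 in SEA with CD1E, and of 0.20, -0.05 and 0.02 with CD1C ENSECAT00000012105. These values depended on single horses. Without the 2 farthest horses they were -0.61, -0.26 and 0.84 with CD1E, and -0.66, -0.16 and 0.92 with CD1C ENSECAT00000012105, where the SEA values over 6 horses had unadjusted exact permutation p values of 0.0361 and 0.0139. Without CTRL replicate 7 alone, the CTRL r was 0.0084 with CD1E and -0.58 with CD1C ENSECAT00000012105. With the percentage of detected spots regressed out, the CTRL r of the latter pair was 0.73. The highest r of SLAMF9 over all horses of a group was 0.70, with CD1C ENSECAT00000012056 in CTRL (exact permutation p = 0.0776, adjusted p = 0.199; rho = 0.68, p = 0.110; r = 0.49 without the 2 farthest horses).

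**Figure D3:**
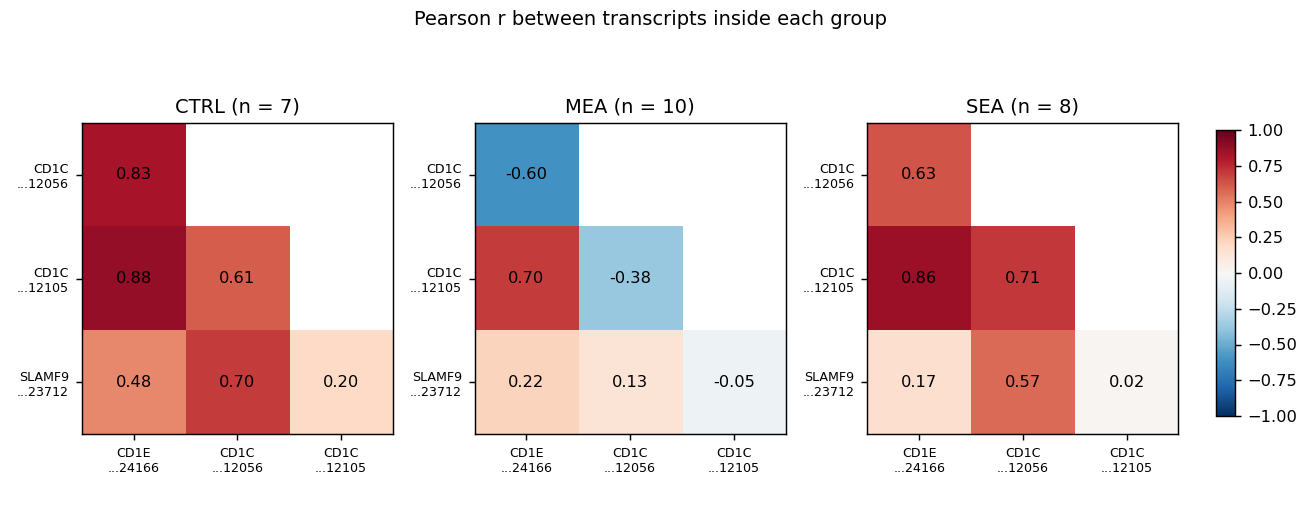
Pearson's r between the 4 transcripts over the horses of each group (7 CTRL, 10 MEA and 8 SEA), with the transcripts on both axes by the last 5 digits of their identifiers and the color giving r. CD1E with CD1C ENSECAT00000012105 is high in every group (0.70 to 0.88), and the negative values are all in MEA, in pairs with a CD1C transcript. CD1C ENSECAT00000012105 lay at background on most CTRL and MEA arrays.

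SLAMF9 moved with the share of spots well above background on the array, a measure of how well an array could be read. Their r was 0.79 in CTRL (exact permutation p = 0.0466), 0.57 in MEA (permutation p = 0.093) and 0.52 in SEA (exact permutation p = 0.182), and none of 12 such relations of the members passed after adjustment (adjusted p of at least 0.558). For CD1E the r lay between -0.23 and 0.11. The part of this share in the SLAMF9 values was not tested further, but with it as a covariate SLAMF9 in MEA minus CTRL was 0.12 ± 0.31 (SE, limma adjusted p = 0.833).

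**Figure D4:**
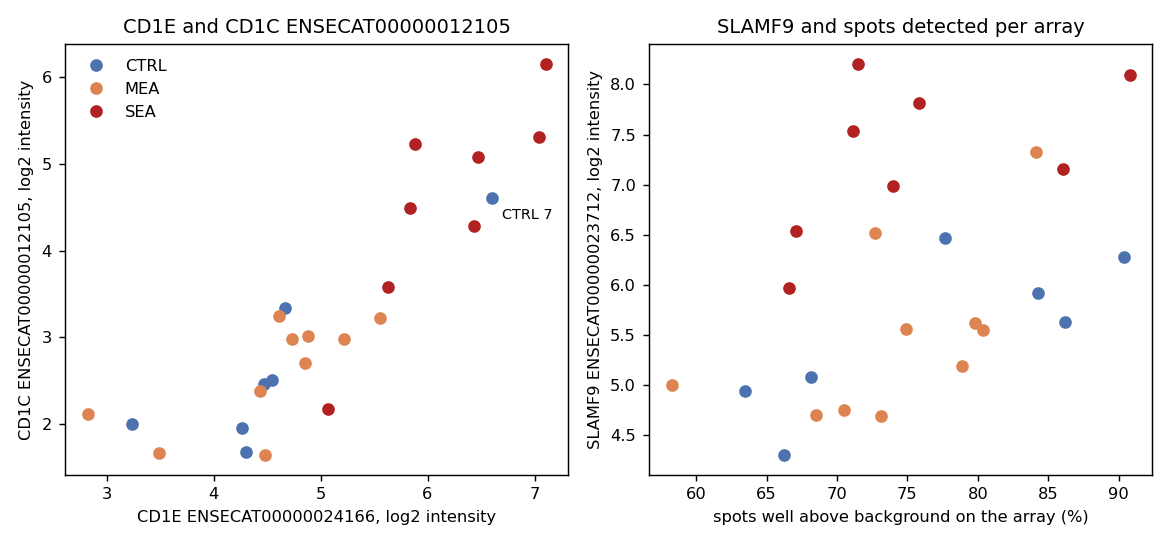
Left, log2 intensity of CD1C ENSECAT00000012105 (y axis) against CD1E (x axis), and right, log2 intensity of SLAMF9 (y axis) against the share of spots well above background on the array in percent (x axis), 1 point for each of the 25 horses. On the left, CTRL replicate 7 lies among the SEA horses, and on the right SLAMF9 is higher on arrays with more readable spots inside each group (r of 0.52 to 0.79).

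Transcripts most like each member were ranked by Pearson's r of the group-centered values over the 25 horses, among 4930 others. The points share arrays and their quality, and the values are a description. CD1C ENSECAT00000012105 was the transcript most like CD1E (r = 0.78), and the reverse also held. Most CTRL and MEA values of this CD1C transcript lay at background. Next to CD1E stood CCR7 (r = 0.69), the receptor by which dendritic cells travel to lymph nodes, and then 3 transcripts without a symbol here. Next to CD1C ENSECAT00000012105 stood SLAMF1 (r = 0.75), a SLAM family receptor of lymphocytes and dendritic cells, then STAT5A (r = 0.64), a transcription factor of cytokine signaling, and 2 transcripts without a symbol. Over all ranked transcripts the 95th percentile of r was 0.40 for both members.

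CD1C ENSECAT00000012056 had another set of neighbours. They were CLEC5A (r = 0.63), a lectin receptor of monocytes and neutrophils, HHEX (r = 0.59), a homeobox transcription factor, RELT (r = 0.57), a receptor of the TNF receptor family, VCAN (r = 0.57), a matrix proteoglycan made by monocytes, and 1 transcript without a symbol. The other CD1C transcript ranked 13 for it (r = 0.54) and CD1E 82 (r = 0.45). In MEA the r with CLEC5A was 0.16, against 0.83 in CTRL and 0.76 in SEA.

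SLAMF9 had the closest neighbours and no CD1 transcript among them. Its r was 0.84 with RBPJ, the DNA-binding partner of Notch, 0.83 with MATK, a tyrosine kinase of blood cells, and 0.82 with CHN1, a regulator of Rac, and 0.84 with each of 2 transcripts without a symbol. With the share of spots well above background removed, these r were 0.75, 0.77 and 0.86 for RBPJ, MATK and CHN1. Its 95th percentile over all transcripts was 0.59. CD1E ranked 1176 for SLAMF9 (r = 0.29), and CD1C ENSECAT00000012105 ranked 2203 (r = 0.05).

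The other CD1 transcripts with a symbol were 2 listed as CD1A, a surface CD1 molecule that marks Langerhans cells and samples early endosomes. Both were taken from the list of the SEA and CTRL contrast, so their SEA difference is a description. CD1A ENSECAT00000009056 resembled the members, with a mean of 5.55 ± 0.76 (SD, n = 8) in SEA against an MEA mean of 4.44 ± 0.96 (SD, n = 10) and a CTRL mean of 3.998 ± 1.18 (SD, n = 7). CD1A ENSECAT00000007836 had a mean of 4.498 ± 0.61 (SD, n = 8) in SEA, an MEA mean of 4.29 ± 0.96 (SD, n = 10) and a CTRL mean of 3.61 ± 0.62 (SD, n = 7), so that MEA stood near SEA. SEA exceeded MEA by 0.21 ± 0.37 (SE) for this transcript and by 1.12 ± 0.39 (SE) for ENSECAT00000009056. Between MEA and CTRL neither was called, with differences of 0.68 ± 0.39 (SE, limma adjusted p = 0.301) for ENSECAT00000007836 and 0.44 ± 0.48 (SE, limma adjusted p = 0.601) for ENSECAT00000009056.

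Of the SLAM family, SLAMF1, CD48 and CD84 had symbols besides SLAMF9. SLAMF1 had the pattern of SLAMF9, with a mean of 5.02 ± 0.85 (SD, n = 8) in SEA against an MEA mean of 3.59 ± 0.82 (SD, n = 10) and a CTRL mean of 3.57 ± 0.76 (SD, n = 7), although it was detected with both spots on 3 of 7 CTRL and 4 of 10 MEA arrays. Its MEA minus CTRL difference was 0.01 ± 0.37 (SE, limma adjusted p = 0.987). CD84, a receptor that binds itself on neighbouring cells, had another order. It was called higher in MEA than in CTRL by 0.99 ± 0.33 (SE, limma adjusted p = 0.0866), with 8 of 10 MEA horses above the CTRL mean, and SEA differed from MEA by -0.08 ± 0.31 (SE). The CD84 call in MEA was kept on leaving out CTRL replicate 5 or 7 or MEA replicate 3, 4 or 7, and was lost on leaving out any other of the 17 horses (limma adjusted p up to 0.192). Neither a fit with slide as a block (limma adjusted p = 0.134) nor normexp background correction (limma adjusted p = 0.314) kept it. CD48, which is widely expressed on leukocytes, lay at 11.05 ± 0.42 (SD, n = 8) in SEA, against an MEA mean of 10.62 ± 0.68 (SD, n = 10) and a CTRL mean of 10.17 ± 0.71 (SD, n = 7), and it was not called in MEA (limma adjusted p = 0.422).

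Genes of antigen presentation and cell type markers were counted beside the members. Nearly all of these symbols come from the list of the SEA and CTRL contrast in the same horses, so a high count there is not independent evidence. Of all tested transcripts 15.9% were called higher and 16.6% lower in SEA than in CTRL, with a median difference of -0.01. In SEA against MEA the shares were 1.32% and 0.73%, with a median of -0.04, and the median of MEA minus CTRL was 0.03. The calls in SEA against MEA were not stable, since limma called 0 of 4930 transcripts when slide was entered as a block (657 at an unadjusted p below 0.05), 0 of 4930 with the replicate block (637) and 0 of 5094 with scaling to the 75th percentile (993).

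Transcripts listed as dendritic cell markers, among which CD1 genes belong, were higher in SEA than in CTRL. The list is not specific to these cells, since CCL17 also comes from macrophages. Both transcripts of ITGAX are in it, so it holds fewer genes than transcripts. Of 9 transcripts 7 were tested, and all 7 were called higher in SEA than in CTRL (median 1.49), 1 in SEA than in MEA (median 0.90), and 0 in MEA than in CTRL (median 0.59; by limma, with 1125 of 4930 transcripts at an unadjusted p below 0.05). CCL17, a chemokine of dendritic cells and alternatively activated macrophages, was higher in SEA than in CTRL by 3.64 ± 0.80 (SE), and CCR7 by 1.83 ± 0.46 (SE). CCR7 was also the transcript called against MEA (1.76 ± 0.46, SE, limma adjusted p = 0.0857), and that call was lost when slide was entered as a block (1.57 ± 0.52, SE, limma adjusted p = 0.269). The summed intensity of the 9 transcripts ranged from 529 to 2035 in CTRL, from 1035 to 3153 in MEA and from 2621 to 10615.5 in SEA. CD207 and EBI3 did not pass the filter. CD207, the Langerhans cell lectin, had both spots well above background on 3 of 7 CTRL, 3 of 10 MEA and 6 of 8 SEA arrays. The part of dendritic cell number in the CD1 values was not tested.

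Antigen presentation and co-stimulation genes moved in both directions. Of 7 tested transcripts 5 were called higher and 2 lower in SEA than in CTRL, and none of the 7 was called in SEA against MEA by limma (with 1021 of 4930 transcripts at an unadjusted p below 0.05). The co-inhibitory ligand CD274 was higher in SEA by 1.497 ± 0.34 (SE) and the co-stimulatory ligand ICOSLG by 1.45 ± 0.32 (SE). The class II regulator CIITA differed by -0.82 ± 0.30 (SE) and the class II chaperone CD74 by -0.66 ± 0.28 (SE). In MEA 1 was called higher and 1 lower than in CTRL. These were CD80, a co-stimulatory ligand (1.64 ± 0.39, SE, limma adjusted p = 0.0259), and CD74 (-1.13 ± 0.30, SE, limma adjusted p = 0.0415), named after their values were seen. The CD74 call was lost on leaving out CTRL replicate 1, 4 or 6 (limma adjusted p up to 0.105) and with the slide as a block (limma adjusted p = 0.106), while that of CD80 was kept without any 1 of the 17 horses and with the slide as a block (limma adjusted p = 0.0781). With the replicate block both calls were lost (limma adjusted p = 0.170 for CD74 and 0.183 for CD80).

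Of 6 transcripts of the endosome and lysosome route, through which CD1 molecules meet their lipids, 2 were called higher and 2 lower in SEA than in CTRL (median 0.74). LAMP2, a lysosomal membrane protein, was higher by 0.99 ± 0.32 (SE). The proteases CTSE and CTSF differed by -2.17 ± 0.64 (SE) and -0.85 ± 0.20 (SE). CTSF was also the transcript called lower in MEA (-0.77 ± 0.20, SE, limma adjusted p = 0.0369), a call that was lost with the slide as a block (limma adjusted p = 0.103).

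Markers of other BAL cells also differed between the groups. Of 10 neutrophil markers 8 were called higher and 1 lower in SEA than in CTRL (median 1.94), led by the transcripts of TREM1 (3.60 ± 0.84 and 3.499 ± 0.82, SE), with LTF lower (-2.10 ± 0.76, SE). Their summed intensity had a median of 9017 in CTRL (3269 to 30772.5), 9117 in MEA (4123 to 276843) and 56509 in SEA (4098 to 212009). The highest MEA value was that of replicate 3 alone, with the next at 38927. The lowest SEA value was that of replicate 1 alone, with the next at 36789. That horse, the only SEA horse on slide 1, was also the lowest SEA horse for CD1C ENSECAT00000012056 and SLAMF9. By the study's cell counts, neutrophils were the most frequent cells in every SEA horse and macrophages in every MEA horse. The marker sums of SEA replicate 1 and MEA replicate 3 therefore do not stand for their neutrophil counts. Of the 10 neutrophil markers, 9 were detected on every CTRL array. Of 7 tested macrophage markers 3 were called higher in SEA, among them MPEG1 (1.59 ± 0.47, SE) and EMR1 (1.56 ± 0.48, SE), and 2 in MEA, both transcripts of SIGLEC1. MARCO (-1.12 ± 0.58, SE) and VSIG4 (-0.54 ± 0.66, SE) were lower in SEA than in CTRL but were not called. The summed intensity of the macrophage markers overlapped in all groups (18754 to 56481 in CTRL, 33145 to 88056 in MEA and 38891 to 77410 in SEA). The study's cell counts found macrophages prevailing in CTRL and MEA but neutrophils in SEA. The overlap of these sums therefore does not show a like macrophage content.

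Of 12 tested lymphocyte markers 7 were called higher and 1 lower in SEA than in CTRL (median 1.07), with FCRL1 (1.93 ± 0.51, SE) and CTLA4 (1.43 ± 0.41, SE) in front. Their summed intensity had a median of 8448 in CTRL (4003 to 24080), 4891 in MEA (2971 to 13153) and 4558 in SEA (1015 to 9649). The highest CTRL value was that of replicate 2 alone, with the next at 9428, so that the groups overlapped. The 4 transcripts listed as GZMB, a granule protease of killer cells, differed in sign between SEA and CTRL (0.97, -1.13, -1.35 and -0.83). Those at -1.35 and -0.83 had CTRL means of 11.93 and 11.78, against 6.46 or less for every other lymphocyte marker. The summed intensity therefore mostly reads these 2 GZMB transcripts and is not a level of the lymphocyte markers as a whole. The 7 epithelial markers were all called lower in SEA (median -2.09), led by EPCAM (-2.55 ± 0.71, SE) and CLDN7 (-2.32 ± 0.50, SE), and 4 of them also in MEA (median -1.23). Of these 4, both transcripts of KRT18 kept the call without any 1 of the 17 horses, while FOXJ1 kept it in 10 and EPCAM in 7 of the 17 fits (limma adjusted p up to 0.1796 and 0.2003). With slide as a block the KRT18 calls were kept (limma adjusted p = 0.0655 for each) and those of FOXJ1 and EPCAM lost (limma adjusted p = 0.118 and 0.102). The summed intensity of the 7 markers had a median of 19275 in CTRL (8178 to 40542), 8001 in MEA (2551 to 24842) and 5350 in SEA (832 to 9444). The part of these marker differences in the CD1 and SLAMF9 values was not tested.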

How the data were processed

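RNA from BAL cells of 25 horses was hybridized to 1-color custom arrays with 14476 spots, 2 for each of 7238 transcripts. The authors deposited scanner intensities of every spot, corrected for background within the array by Feature Extraction 9.5.1.1 and not normalized between arrays, and 1 table of intensities that they had normalized by cyclic loess (the submitters' processing notes name R 2.11.1). The normalized log2 intensities used here correlated with those deposited by the authors at 0.9995 (r over all values). No arrays held identical values. That the horses are separate animals is stated by the study.

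Work was done with limma (version 3.58.1) and data.table (version 1.17.8) under R 4.3.3. Cyclic loess with a span of 0.7 and 3 iterations was applied to log2 intensities, both spots of each probe were combined as their mean, and the filter at 4.5 in at least 19 arrays was applied. The methods give this limit without a scale. Each comparison used limma's lmFit followed by eBayes on the horses concerned, with Benjamini-Hochberg adjustment over all tested transcripts. Correlations were tested by permutation, exact below 10 horses and otherwise with 100000 resamples, adjusted over 18. The study's SAM test was replaced by limma. The steps were tested on simulated data. Number of arrays and signal over background limit the precision, since arrays have no depth.

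The members and lists were chosen with earlier results of these data known. Symbols came from the study's supplementary gene lists, which name 1865 transcripts. Named were the members, other CD1 and SLAM transcripts with a symbol, the 5 transcripts most like each member, and of every other list at most 2 with the largest positive and 2 with the largest negative SEA minus CTRL difference. Alternatives were other normalizations and filters, all arrays in 1 fit, trend, robust and array weight settings, slide, scan date or replicate number as a block, the share of spots well above background, rank sum and permutation tests, other thresholds, single spots, and each horse left out. The members' SEA differences, which have no test, were recomputed under fewer of these. Chosen after the data were seen were slides 1 to 3 alone and the count at an adjusted p below 0.05.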

Additional observations from a re-analysis of the deposited data

Results flagged for a closer look

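CD1E ENSECAT00000024166 in CTRL replicate 7 had a log2 intensity of 6.60, and its gap of 1.93 to the next control made up 0.58 of the range of the group, above Dixon's critical value of 0.568 for 7 samples. Of 12 sets of a transcript and a group this was the only value so marked, and chance marks about 1 in 20. Both CD1E spots were well above background on that array, and CD1C ENSECAT00000012105 (4.61) was also highest there. The horse was the only control on slide 4, so the horse and the slide cannot be told apart for controls.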

How the results depend on the processing

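In MEA minus CTRL no member was called under any alternative that gave a test. The limma or rank sum adjusted p ranged from 0.113 to 0.991 for CD1E, 0.268 to 0.953 for CD1C ENSECAT00000012056, 0.596 to 0.99999 for CD1C ENSECAT00000012105 and 0.505 to 0.993 for SLAMF9. The main differences lay within 1 SE of 0, and their sign was not stable. CD1E became 0.17 with array weights, 0.0086 on spot 1 alone, 0.75 on slides 1 to 3, and 0.65, 1.14, 0.19 and -2.58 within slides 1 to 4. CD1C ENSECAT00000012056 became -0.0105 with normexp background correction and was 0.95 within slide 2 and -0.75 within slide 4. CD1C ENSECAT00000012105 became 0.0214 with scaling to the 75th percentile, 0.0071 with quantile normalization, 0.28 with array weights, 0.17 on spot 2 alone, 0.39 on slides 1 to 3, and 0.23, 0.58 and -2.13 within slides 1, 2 and 4. SLAMF9 became 0.0201 with slide or scan date as a block, 0.12 with the percentage of detected spots as a covariate, 0.13 on spot 2 alone, 0.29 on slides 1 to 3, and 0.66, 0.68 and -1.14 within slides 1, 2 and 4. Leaving out each horse gave -0.30 to 0.26 for CD1E, 0.04 to 0.42 and -0.21 to 0.27 for the CD1C transcripts ENSECAT00000012056 and ENSECAT00000012105, and -0.23 to 0.13 for SLAMF9, each time highest without CTRL replicate 7. A rank sum test and an exact permutation test did not change a call. The filter on spots well above background left no fit for CD1C ENSECAT00000012105.

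The replicate numbers pair no horses. Same-numbered MEA and CTRL horses deviated together with r of -0.44 to 0.36 over 7 pairs, 4 of them above 0.1. With the replicate block, MEA minus CTRL was 0.12 for CD1E, 0.23 for CD1C ENSECAT00000012056, -0.13 for CD1C ENSECAT00000012105 and 0.19 for SLAMF9, and the block lowered the count of called transcripts from 480 to 136.

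SEA stayed above both groups for all 4 transcripts under the alternatives run for these differences, which were the other normalizations, slide as a block, the share of spots well above background, slides alone, slides 1 to 3, single spots and each horse left out. Normexp background correction, whose offset of 50 compresses low intensities, lowered SEA minus CTRL to 0.51 for CD1E, 0.22 and 0.23 for CD1C ENSECAT00000012056 and ENSECAT00000012105 and 0.93 for SLAMF9, and SEA minus MEA to 0.66 for CD1E, 0.23 and 0.26 for the CD1C transcripts. Scaling to the 75th percentile lowered CD1C ENSECAT00000012056 to 0.97 ± 0.53 (SE) against CTRL and to 0.64 ± 0.40 (SE) against MEA. Within slide 1, SEA minus CTRL was 0.27 and 0.69 for the CD1C transcripts, and SEA minus MEA was 0.41 for CD1E, 0.0874 and 0.46 for the CD1C transcripts and 0.69 for SLAMF9. Within slide 4, SEA minus CTRL was 0.44 for CD1E and 0.60 and 0.70 for the CD1C transcripts, and SEA minus MEA was 3.02 for CD1E and 2.88 for SLAMF9. Leaving out each horse gave SEA minus CTRL of 1.37 to 1.93 for CD1E, 1.14 to 1.53 and 1.66 to 2.22 for the CD1C transcripts and 1.57 to 1.96 for SLAMF9. It gave SEA minus MEA of 1.49 to 1.83, 0.96 to 1.28, 1.71 to 2.28 and 1.67 to 2.004 in the same order.

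The count of correlated pairs past an adjusted p of 0.05 was 0 in each group and moved with the treatment of array quality. It was 2 in SEA with scaling to the 75th percentile, and 1 in CTRL, 1 in MEA and 1 in SEA with normexp background correction. It was 3, 1 and 2 in CTRL, MEA and SEA with the share of spots well above background removed, and 2, 1 and 2 with slide means removed. These last tests treat residuals as independent. It was 0 to 1 in CTRL, 0 in MEA and 0 to 1 in SEA with each horse left out. The cause was not tested.

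Over all transcripts the 480 calls of MEA against CTRL ranged from 136 to 740, the 1601 of SEA against CTRL from 874 to 1710 and the 101 of SEA against MEA from 0 to 554 over the alternatives, so that percentages of calls, above all against MEA, hold for the fit reported. Without single horses the last count ran from 2 (without SEA replicate 2) to 554 (without MEA replicate 3). Signal over background limits the CD1C transcripts most.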
